A study of Homo sapiens with 2 samples.

Results

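The genes described here are those that build, cut, cap and pull on actin filaments, with the LIM kinase and cofilin switch at their centre, in HCC15 cells after knockdown of CTNNB1. The rule used names and no measured value, although earlier results of these data were known when the names were chosen: 52 gene names were given, and a probe set was a member when the platform annotation assigned it exactly 1 of those symbols. Of the 52 names, 47 had such a probe set, with 159 probe sets in all, out of 19775 genes with a single-symbol probe set. PAK1, ACTG1, FLNA, TPM3 and ACTR2 had none and were not analysed here.

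HCC15 is an established human lung cancer cell line that the labels call squamous. An siRNA to CTNNB1, which encodes beta-catenin, was transfected into 1 culture (knockdown cells), and a control siRNA of unstated target, with the word Tax in its sample title, into another (control cells). Both were grown in RPMI medium with 5% fetal bovine serum and taken 48 h after transfection, and total RNA was read on 1 expression array each. The knockdown was transient and was made in this 1 line, which the series title places among CTNNB1-mutated lung cancers.

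Actin filaments grow by adding monomers at one end and are cut and emptied at the other by cofilin. LIM kinases phosphorylate cofilin and switch it off, slingshot phosphatases switch it back on, and LIM kinases are themselves activated by p21-activated kinases under RAC1 and CDC42 and by ROCK1 and ROCK2 under RHOA. New filaments are seeded by the Arp2/3 complex and by formins, and contraction is produced by non-muscle myosin II.

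Values are MAS5 signals, a linear brightness per probe set in arbitrary units, and ratios are the log2 of CTNNB1 siRNA over control siRNA. A probe set entered when its mean signal over both arrays was at least 49.1, the median of all values, and the entering probe set with the highest mean stands for its gene. Signals under 13.8, the 25th percentile, were set to that floor. With 1 array a group no test and no p-value was possible, so genes were called by size alone, at least 2-fold, and a gene is said below to have risen or fallen only past that rule. Error was gauged from genes with several entering probe sets: within such a gene the log2 ratios scattered with a pooled SD of 0.42 (5791 genes), and of 0.29 where the mean signal reached 209, the 75th percentile. This probe set SD holds no variation between cultures. A bulk array also cannot tell a change per cell from a change in the mix of cells.

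The knockdown was seen on the array. CTNNB1 read 339 with CTNNB1 siRNA and 1224 with control siRNA in its representative probe set, a log2 ratio of -1.85. Its other probe sets read 45.8 in knockdown and 89.8 in control cells and 118 in knockdown and 129.7 in control cells, the last a smaller difference than the probe set SD. Over all 12531 entering genes the median log2 ratio was 0.15 (dimmest decile -0.23, brightest 0.27), whereas 18 hybridisation control probe sets had a median of -0.01. The ratio of 3′ to 5′ signal was 1.93 in knockdown and 1.97 in control cells for ACTB, and 1.14 in knockdown and 1.16 in control cells for GAPDH. The control probe sets for ribosomal RNA (M27830) read 218.5 in knockdown and 496 in control cells for the 5′ part, 368 in knockdown and 1579.6 in control cells for the middle part, and 46.5 in knockdown and 19.7 in control cells for the 3′ part. All 5 epithelial markers entered. Of 10 squamous markers 8 had a single-symbol probe set and 4 entered. SFN read 5009 in knockdown and 5472 in control cells, and PERP 3969 in knockdown and 3189 in control cells. S100A2 read 126 in knockdown and 104 in control cells, and SOX2 41.6 in knockdown and 60.1 in control cells. Under the filter were KRT5 (9.8 in knockdown and 34.4 in control cells) and KRT14 (6.7 in knockdown and 25 in control cells). So were KRT16 (49.9 in knockdown and 4.2 in control cells) and DSG3, whose brighter probe set read 37.5 in knockdown and 8.8 in control cells. Of 4 lung adenocarcinoma markers 3 entered. SFTPC read 190.6 in knockdown and 107.3 in control cells, and SFTPB 172 in knockdown and 164.9 in control cells. The other SFTPC probe sets were under the floor on both arrays, and the other entering SFTPB probe sets gave log2 ratios of -0.41 and -0.30. NAPSA read 65.6 in knockdown and 56.2 in control cells, and NKX2-1 was under the filter. Of the markers of other cell types, 3 of 4 leukocyte genes had a single-symbol probe set. Only CD14 entered, at 80.3 in knockdown and 67.1 in control cells. Among endothelial genes 1 of 3 entered (PECAM1 at 80.8 in knockdown and 96.4 in control cells). Of the fibroblast and smooth muscle genes 4 of 7 entered, at 61.4 to 253.4 in knockdown and 58.1 to 326.6 in control cells. COL1A1, in the last list, was at least 2-fold lower in its representative probe set (80.3 in knockdown and 162.5 in control cells). Its other entering probe sets did not show this, at 109.9 in knockdown and 105.8 in control cells and 56.5 in knockdown and 53.7 in control cells. The leukocyte gene PTPRC was under the filter. The part of these values in the results below was not tested.

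Most actin remodelling genes differed little between the arrays, and LIMK1 stood out. Of the 47 genes, 3 were at least 2-fold higher with CTNNB1 siRNA (LIMK1, PXN and TPM2) and 0 were at least 2-fold lower, against 2.29% and 2.38% of all entering genes. The 3 of 47 come to 6.38%, of which PXN and TPM2 lay just past the rule and LIMK1 well past it. The median log2 ratio of the members was 0.21, beside 0.15 for all entering genes. That median was 0.23 for the 7913 genes with a signal at or above the 75th percentile, among which 43 of the members lie. Of these 7913 genes 1.76% were at least 2-fold higher and 0.43% at least 2-fold lower, beside 4.65% and 0% of the 43 members. Calls of lower genes are thus rare at the signals where most members lie. Set against the median of all genes in its own signal decile, 22 members lay above and 25 below, with a median difference of -0.02. The members' median turned to -0.02 after quantile normalization and after loess, so a general rise of actin genes cannot be read from its sign.

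**Figure D1:**
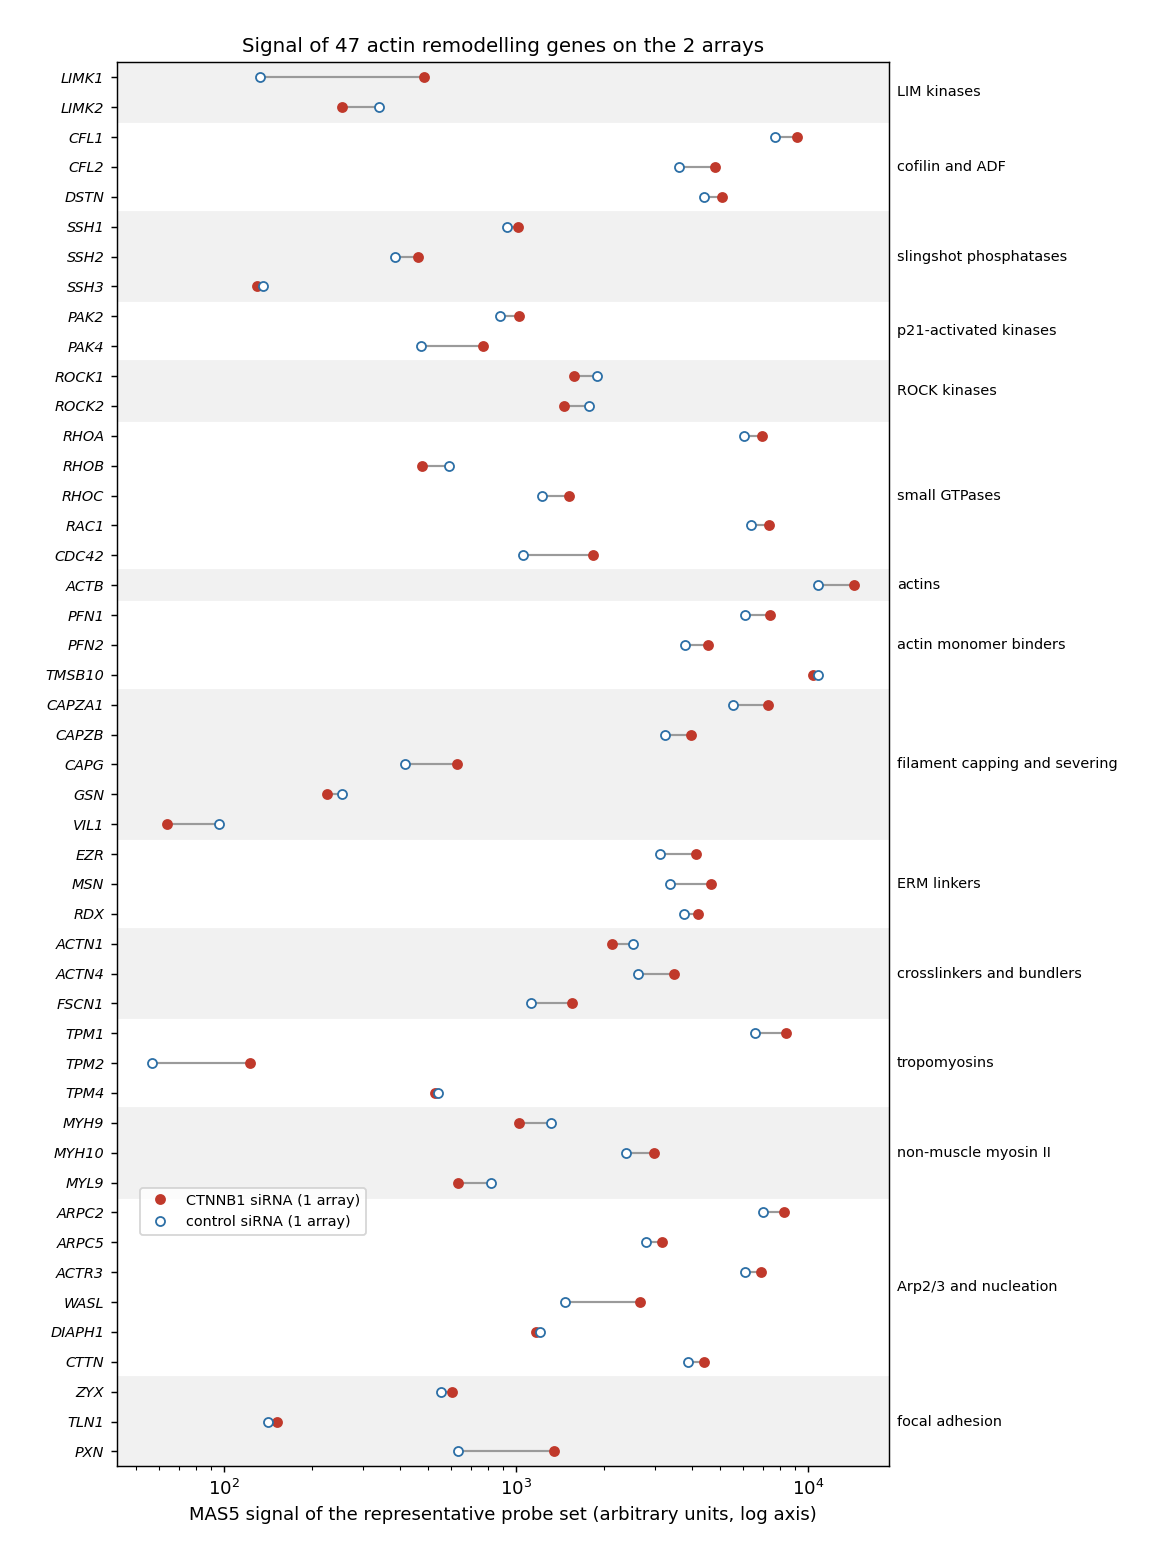
Signal of the representative probe set of each of 47 genes on each array (log axis, arbitrary units), grouped by role, with filled points for CTNNB1 siRNA and open points for control siRNA. The widest gap is that of LIMK1, at 485 with CTNNB1 siRNA and 133 with control siRNA, and most other pairs lie close together.

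The LIM kinases parted from each other. LIMK1, the kinase that inactivates cofilin once PAK or ROCK kinases have activated it, read 485 with CTNNB1 siRNA and 133 with control siRNA in its only entering probe set, which is 3.64-fold higher and a log2 ratio of 1.86. This difference is far larger than the probe set SD of 0.42. It rests on 1 probe set: the other LIMK1 probe sets were under the signal filter and read 42.8 in knockdown and 38.4 in control cells in one and 5.9 in knockdown and 6.4 in control cells in the other (under the floor on both arrays). The entering LIMK1 probe set has the suffix _s_at, which marks one that can match more than 1 transcript, so related sequences could add to its signal, which was not tested. LIMK2, the second family member, read 254 with CTNNB1 siRNA and 338 with control siRNA, a log2 ratio of -0.41, and its other entering probe set gave -0.40 (142 in knockdown and 188 in control cells). The LIMK2 probe sets thus lay together, on the opposite side of 0 from LIMK1 and short of 2-fold.

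The annotated start of LIMK1 and those of PXN and TPM2, the members past 2-fold, are shown because the knockdown targets beta-catenin, a TCF/LEF coactivator. The sites of TCF/LEF factors are read from the letters CTTTGAT or CTTTGAA. Windows of 300 bases, from 250 before to 50 after an annotated gene start, were taken from RefSeq (GRCh38.p14), and 40 of the 47 genes had at least 1, with 69 windows in all. ACTB, CTTN, FSCN1, MYL9, PFN2, RAC1 and VIL1 had no entry. Both strands were searched, and overlapping matches were counted separately. None of the windows of LIMK1, PXN or TPM2 held either TCF heptamer or a CArG box, the site of the actin gene regulator SRF. Sites outside these short windows were not searched. The first listed window of each is printed 5′ to 3′ on the strand of the gene, with capitals at every GC box (GGGCGG on either strand), of which the windows hold 8, 8 and 2.
LIMK1 (chr7:74083554-74083853, plus strand): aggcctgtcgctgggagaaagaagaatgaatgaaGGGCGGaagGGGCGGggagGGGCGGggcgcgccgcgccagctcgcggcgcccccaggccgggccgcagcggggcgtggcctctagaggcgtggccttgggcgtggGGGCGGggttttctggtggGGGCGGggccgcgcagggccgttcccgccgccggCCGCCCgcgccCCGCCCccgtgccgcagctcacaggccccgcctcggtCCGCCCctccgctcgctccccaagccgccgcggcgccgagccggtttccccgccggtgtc
PXN (chr12:120265681-120265980, minus strand): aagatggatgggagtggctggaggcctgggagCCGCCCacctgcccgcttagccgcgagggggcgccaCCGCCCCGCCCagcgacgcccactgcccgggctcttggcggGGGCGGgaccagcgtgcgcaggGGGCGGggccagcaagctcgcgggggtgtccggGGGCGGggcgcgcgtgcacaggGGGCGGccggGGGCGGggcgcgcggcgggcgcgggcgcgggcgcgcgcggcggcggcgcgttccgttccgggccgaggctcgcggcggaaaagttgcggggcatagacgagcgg
TPM2 (chr9:35690007-35690306, minus strand): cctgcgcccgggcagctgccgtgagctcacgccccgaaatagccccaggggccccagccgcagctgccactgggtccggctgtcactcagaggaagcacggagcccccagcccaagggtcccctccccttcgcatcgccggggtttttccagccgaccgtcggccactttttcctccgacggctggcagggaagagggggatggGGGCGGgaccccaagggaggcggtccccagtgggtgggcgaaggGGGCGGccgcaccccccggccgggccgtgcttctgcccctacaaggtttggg

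Among all member windows the TCF heptamers were found in 1 of 69 (1.45%), against 6.86% of all 35116 windows. The CArG box was found in 3 of 69 (4.35%), those of ACTN1, ROCK2 and TPM4, against 1.29% of all windows, and the GC box in 55 of 69 (79.7%), against 45.0%. All windows include genes of any signal, while 28 of the 47 members lie in the brightest 2 signal deciles. The shares were not matched for signal or for base composition. A match is a description of the letters in the window and not evidence of a bound site. ACTN1, an actin crosslinker, was the only member with both a TCF heptamer and a CArG box, in different windows, and these are printed with the match in capitals (the CArG box first, the TCF heptamer after it).
ACTN1 (chr14:68977517-68977816, minus strand): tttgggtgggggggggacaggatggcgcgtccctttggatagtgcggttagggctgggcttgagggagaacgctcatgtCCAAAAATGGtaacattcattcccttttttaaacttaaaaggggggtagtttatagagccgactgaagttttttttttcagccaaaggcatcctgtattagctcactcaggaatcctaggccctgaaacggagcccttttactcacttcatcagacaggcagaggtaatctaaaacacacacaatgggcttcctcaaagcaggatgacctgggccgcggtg
ACTN1 (chr14:68937902-68938201, minus strand): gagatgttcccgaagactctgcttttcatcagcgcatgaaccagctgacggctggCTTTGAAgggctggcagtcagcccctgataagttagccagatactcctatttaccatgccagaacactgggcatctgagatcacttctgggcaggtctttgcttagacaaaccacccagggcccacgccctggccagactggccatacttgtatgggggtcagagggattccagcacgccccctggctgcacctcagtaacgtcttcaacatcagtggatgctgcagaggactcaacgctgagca

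The substrates of the LIM kinases were bright and changed little. CFL1, the main non-muscle cofilin, read 9140.5 with CTNNB1 siRNA and 7685 with control siRNA, a log2 ratio of 0.25, and its other entering probe set gave 0.61 (4634 in knockdown and 3028 in control cells). CFL2, the cofilin best known from muscle, read 4786 with CTNNB1 siRNA and 3610.5 with control siRNA (0.41), with 0.13 and 0.56 in its other probe sets. DSTN, the actin-depolymerising factor destrin, read 5076.5 with CTNNB1 siRNA and 4405.5 with control siRNA (0.20), with 0.19 in a second bright probe set and -0.20 in a dim one. All 3 lie above 0, none reached 2-fold, and each was within the probe set SD of the median of all genes. The sign of CFL1 turned after loess (-0.01).

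The slingshot phosphatases, which remove the LIM kinase phosphate from cofilin, lay near 0 as a group of 3. SSH1 read 1012 with CTNNB1 siRNA and 933 with control siRNA (log2 ratio 0.12), with -0.24 and -0.17 in its dimmer entering probe sets. SSH2 read 462 with CTNNB1 siRNA and 385 with control siRNA (0.26; 0.60 in the other entering probe set). SSH3 read 129 with CTNNB1 siRNA and 136 with control siRNA (-0.07), but its probe sets disagreed, with 117 in knockdown and 117 in control cells in the second and 117 in knockdown and 62.2 in control cells (0.92) in the dimmest. None of the slingshot probe sets that entered passed 2-fold.

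The kinases that activate LIM kinases lay on either side of 0. PAK4, an effector of CDC42, read 769 with CTNNB1 siRNA and 471 with control siRNA (log2 ratio 0.71), and 655 in knockdown and 504 in control cells (0.38) in its other entering probe set. PAK2, an effector of Rac and CDC42, read 1021 with CTNNB1 siRNA and 880.1 with control siRNA in its representative probe set (0.21), but its 4 other entering probe sets were all higher in ratio. They gave 0.84 (604 in knockdown and 337 in control cells), 0.95 (541 in knockdown and 280.5 in control cells), 1.36 (302 in knockdown and 117 in control cells) and 0.67 (125 in knockdown and 78.7 in control cells), so 1 of 5 passed 2-fold. The median over PAK2 probe sets was 0.84, and which of them follows the full transcript is not given in the sources used here. ROCK1, a kinase activated by RHOA, read 1574.5 with CTNNB1 siRNA and 1893 with control siRNA (-0.27), and ROCK2 read 1462 with CTNNB1 siRNA and 1778 with control siRNA (-0.28). Their second probe sets gave 0.10 and 0.06, and no entering probe set of either gene reached the probe set SD of 0.29 in the deposited values. After quantile normalization the ratios were -0.54 for ROCK1 and -0.55 for ROCK2.

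The small GTPases that head these routes also stayed under 2-fold. CDC42, which drives filopodia, read 1832 with CTNNB1 siRNA and 1053 with control siRNA (log2 ratio 0.80), and its other 3 entering probe sets gave 0.46, 0.66 and 0.22. RHOA, the activator of ROCK1 and ROCK2, read 6950.0 with CTNNB1 siRNA and 6018 with control siRNA (0.21; 0.46 in another probe set), and RHOC read 1515 with CTNNB1 siRNA and 1225 with control siRNA (0.31). RHOB, an inducible GTPase found on endosomes, read 478 with CTNNB1 siRNA and 591 with control siRNA (-0.31). RAC1, which drives lamellipodia, read 7322 with CTNNB1 siRNA and 6360.1 with control siRNA (0.20), with 0.31 and 0.28 in 2 further bright probe sets. The dimmest RAC1 probe set went the other way at 97.5 in knockdown and 246 in control cells (-1.33), the only entering member probe set at least 2-fold lower.

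Counted by probe set, 108 of the 159 entered. Of these, 5 were at least 2-fold higher (1 each of LIMK1, PAK2, TPM2, WASL and PXN), against 3.42% of all 22468 entering probe sets, and 1 was at least 2-fold lower, against 2.21%. The members' shares were 4.63% and 0.926%. Probe sets of 1 gene lay over 1 log2 unit apart in 5 of the 31 members that had more than 1 entering (16.1%, against 15.6% of all such genes), and on both sides of 0 in 14 (45.2%, against 45.4%). The probe sets of actin genes therefore disagreed about as often as those of all genes. Of the 51 under the filter, 2 were at least 2-fold higher, against 6.06% of all 18629 such probe sets, and 4 were at least 2-fold lower, against 10.9%.

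**Figure D2:**
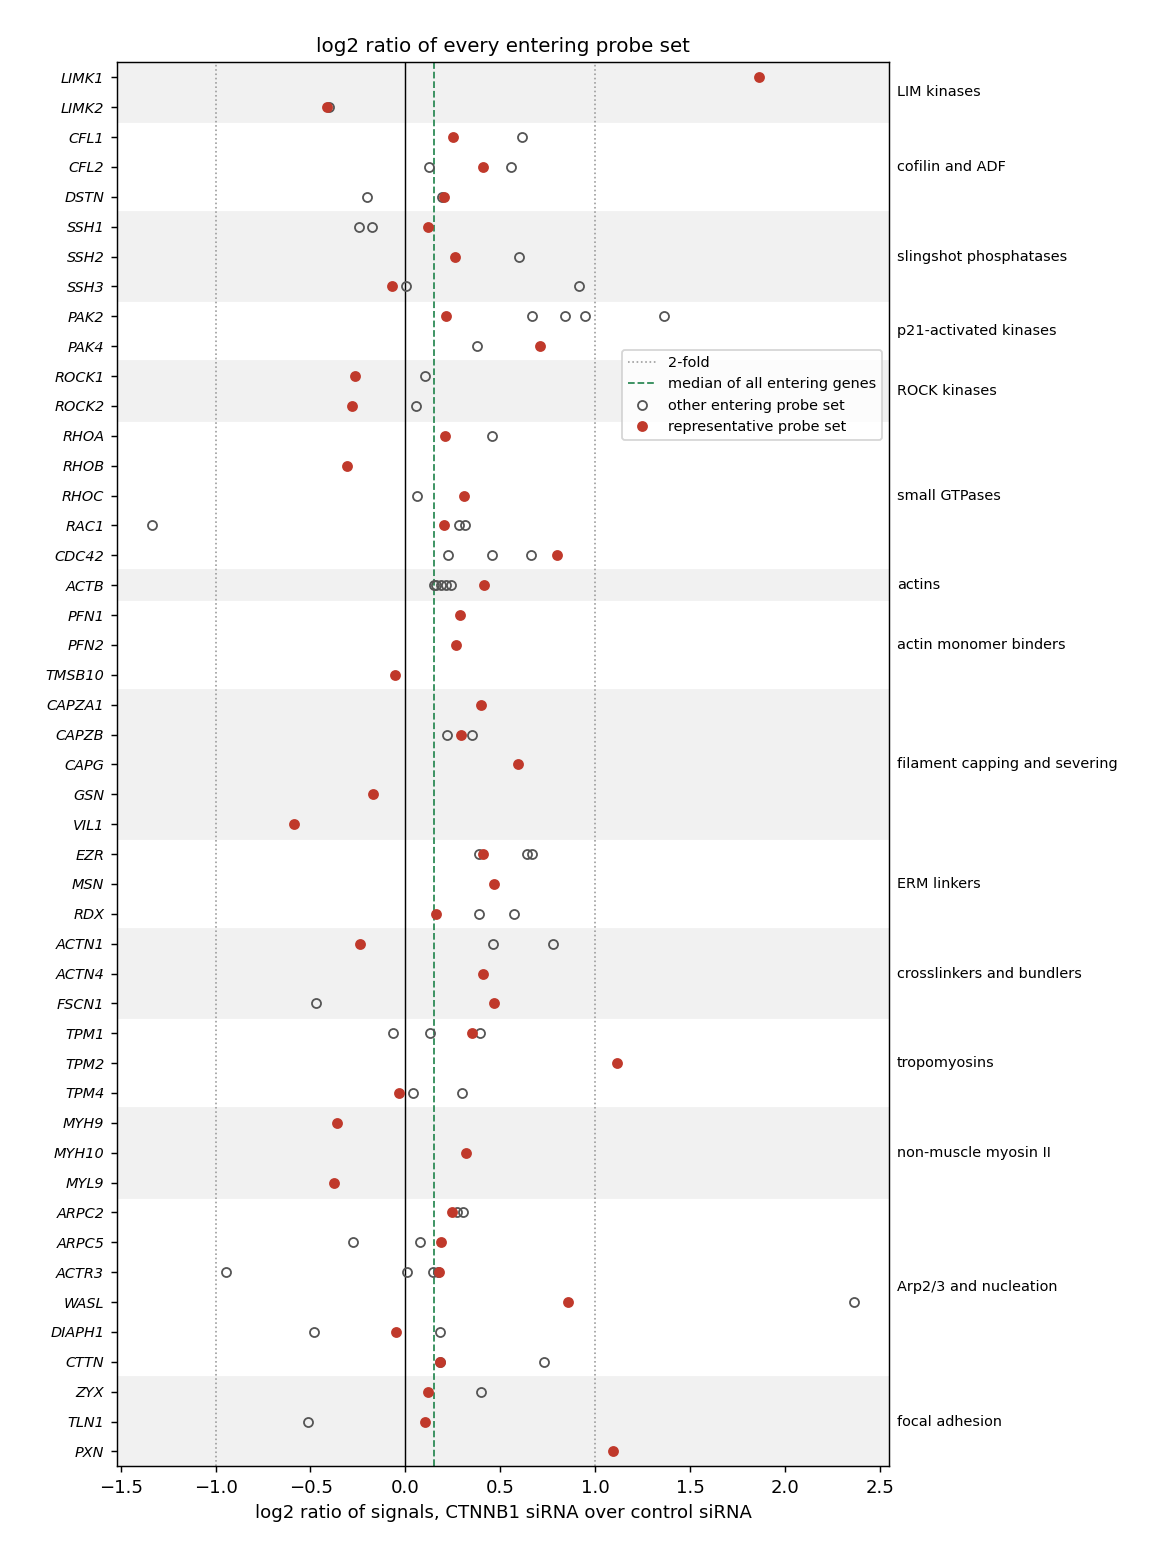
log2 ratio of signals (CTNNB1 siRNA over control siRNA) of every entering probe set of the 47 genes, grouped by role, with filled points for the representative probe set and open points for the others. LIMK1, PXN and TPM2 have 1 entering point each, past the dotted 2-fold line, and the PAK2 and WASL points are spread over more than 1 log2 unit.

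Among actin itself and its monomer binders the ratios were small. ACTB, the cytoplasmic beta-actin, read 14374 with CTNNB1 siRNA and 10789.9 with control siRNA (log2 ratio 0.41) in its representative probe set, while the other 5 entering probe sets ran from 0.15 to 0.24. The profilins, which feed monomers to growing filaments, read 7428 in knockdown and 6083 in control cells for PFN1 (0.29) and 4554 in knockdown and 3784 in control cells for PFN2 (0.27). TMSB10, a thymosin that holds monomers in reserve, read 10388 in knockdown and 10792 in control cells (-0.06). The representative ACTB ratio exceeded the bright-gene probe set SD of 0.29, and no other entering value given here for this group did.

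The genes that cap or sever filaments split by member. CAPG, a gelsolin-like capping protein, read 629.7 with CTNNB1 siRNA and 417 with control siRNA (log2 ratio 0.59). The subunits of capping protein read 7274 in knockdown and 5519 in control cells for CAPZA1 (0.40) and 3959 in knockdown and 3237 in control cells for CAPZB (0.29). GSN, the severing protein gelsolin, read 225 with CTNNB1 siRNA and 254 with control siRNA (-0.17), and VIL1, the microvillus protein villin, was dim at 64 in knockdown and 96.3 in control cells (-0.59). GSN and VIL1 lay below 0 and the 3 capping genes above it, with none past 2-fold.

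The linkers of filaments to the plasma membrane lay above 0 together. EZR, which encodes ezrin, read 4143 with CTNNB1 siRNA and 3119 with control siRNA (log2 ratio 0.41), and its 3 other entering probe sets gave 0.39, 0.64 and 0.67. MSN, for moesin, read 4659.9 with CTNNB1 siRNA and 3369 with control siRNA (0.47). RDX, for radixin, read 4185 with CTNNB1 siRNA and 3746 with control siRNA (0.16), with 0.39 and 0.57 in the dimmer probe sets. EZR and MSN stayed above 0 in every alternative in which they entered, and the sign of RDX changed in 3 of 11.

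Crosslinkers and bundlers disagreed between probe sets. ACTN1, a non-muscle alpha-actinin, read 2138 with CTNNB1 siRNA and 2520.3 with control siRNA (log2 ratio -0.24) in its representative probe set but 1557 in knockdown and 1131 in control cells (0.46) and 1527 in knockdown and 892 in control cells (0.78) in the other entering ones. ACTN4, its close relative, read 3468 with CTNNB1 siRNA and 2607 with control siRNA (0.41). FSCN1, the filopodial bundler fascin, read 1554 with CTNNB1 siRNA and 1125 with control siRNA (0.47), and 221 in knockdown and 306 in control cells (-0.47) in a dimmer probe set. ACTN1 and FSCN1 thus have no settled direction on these arrays.

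TPM2 rose among the tropomyosins, which coat filaments and set which proteins reach them. It read 123 with CTNNB1 siRNA and 56.7 with control siRNA, 2.17-fold higher (log2 ratio 1.12), from a dim control signal, and its other 3 probe sets were under the filter, at 22.6 in knockdown and 34.8 in control cells, 8.9 in knockdown and 9.8 in control cells and 4.7 in knockdown and 2.3 in control cells. The call was lost after scaling to a common trimmed mean (0.90) and after centring on the median of all genes (0.97), and TPM2 did not enter with the filter at the 75th percentile or without _x_at, _s_at and _a_at probe sets. Its entering probe set, like that of LIMK1, has the suffix _s_at. TPM1 read 8404 with CTNNB1 siRNA and 6590.2 with control siRNA (0.35), with 0.13, 0.39 and -0.06 in the other entering probe sets. TPM4 read 528 with CTNNB1 siRNA and 541 with control siRNA (-0.03).

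The genes of non-muscle myosin II, the contractile motor, did not pass the rule. MYH9, the heavy chain of myosin IIA, read 1026 with CTNNB1 siRNA and 1317 with control siRNA (log2 ratio -0.36), and MYL9, a regulatory light chain, read 631 with CTNNB1 siRNA and 819 with control siRNA (-0.38). MYH10, the heavy chain of myosin IIB, read 2962 with CTNNB1 siRNA and 2371.5 with control siRNA (0.32). Together with ROCK1, ROCK2, RHOB, LIMK2, GSN and VIL1, the MYH9 and MYL9 ratios were negative in every one of up to 11 alternative settings in which the gene entered. These 8 genes were grouped after their values were seen, and none of them passed 2-fold in any setting. Another 17 members, among them LIMK1, PXN, TPM2, WASL, CDC42, PAK4 and CFL2, were positive in every such setting, and the sign of the other 22 depended on the setting. As deposited, 72.3% of members lay above 0, against 64.0% of all entering genes and 76.1% of those at or above the 75th signal percentile. Counts of signs over all settings are not given here for all genes.

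Filament nucleation genes were led by WASL, which encodes N-WASP, the CDC42 effector that activates the Arp2/3 complex. It read 2661 with CTNNB1 siRNA and 1470.5 with control siRNA (log2 ratio 0.86), short of 2-fold, and 96.8 in knockdown and 18.8 in control cells (2.36) in a dim second probe set. The median over its probe sets, 1.61, passed the rule. The Arp2/3 subunits among the members lay close together in their representative probe sets. ARPC2 read 8282 in knockdown and 6988 in control cells (0.25), and ACTR3 6900.3 in knockdown and 6097 in control cells (0.18). ARPC5 read 3161 in knockdown and 2778 in control cells (0.19; -0.28 in a dim probe set). One dimmer ACTR3 probe set went the other way at 355 in knockdown and 685 in control cells (-0.95). Of the subunits outside the members, ARPC1A (-0.25) and ARPC4 (-0.09) lay below 0, and ARPC1B (0.18), ARPC3 (0.15) and ARPC5L (0.44) above it. The cortical Arp2/3 activator CTTN read 4414 in knockdown and 3885 in control cells (0.18) and the formin DIAPH1, an effector of RHOA, 1173 in knockdown and 1212 in control cells (-0.05).

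PXN rose among the focal adhesion genes. It encodes paxillin, the scaffold that gathers kinases at adhesions, and read 1350.2 with CTNNB1 siRNA and 633 with control siRNA, 2.13-fold higher (log2 ratio 1.09). Its second probe set, under the filter, read 5.1 in knockdown and 25.1 in control cells. The call was lost after quantile normalization and loess (0.84 each), scaling to a common trimmed mean (0.88) and centring on the median of all genes (0.94). ZYX, for zyxin, read 601 with CTNNB1 siRNA and 554 with control siRNA (0.12; 0.40 in another probe set), and TLN1, which couples integrins to actin as talin, read 152 with CTNNB1 siRNA and 141 with control siRNA (0.10; -0.52 in another probe set).

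**Figure D3:**
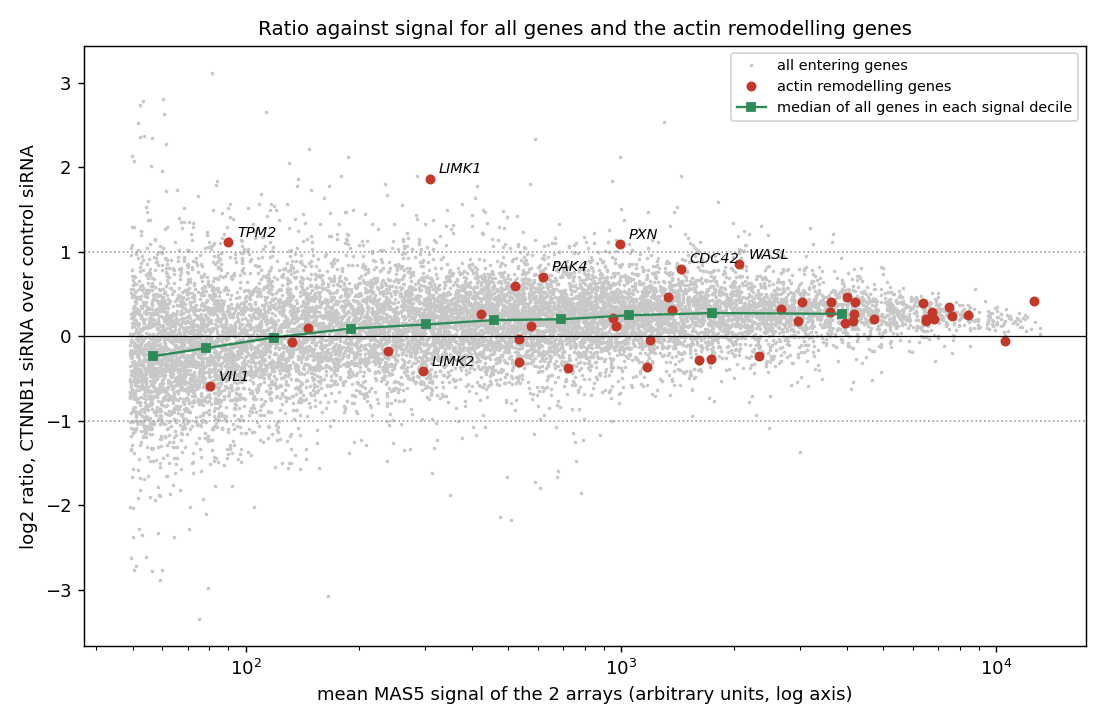
log2 ratio (CTNNB1 siRNA over control siRNA) against mean signal (log axis, arbitrary units) for all 12531 entering genes in grey and the 47 actin remodelling genes in red, with the median of all genes per signal decile as a green line and 2-fold as dotted lines. Most red points follow the green line, which runs from -0.23 to 0.27, and LIMK1 at 1.86 lies far above it.

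Of 122 other genes of the actin pathway in 8 lists, 104 entered. Of those, 0 were at least 2-fold higher (0%, against 2.29% of all entering genes) and 2 were at least 2-fold lower (1.92%, against 2.38%). Their median log2 ratio was 0.16 beside 0.15 for all genes. Cofilin regulators had 15 entering genes and a median of 0.17, with the cofilin kinase TESK1 at 0.53 (129 in knockdown and 89.5 in control cells), TESK2 at 0.48 and the monomer binder TWF2 at 0.40. The other Arp2/3, WASP and WAVE genes had 14 and a median of 0.12, with WASF3 at -0.93 (39.9 in knockdown and 75.8 in control cells), the WAVE complex gene ABI1 at 0.52 and ARPC5L at 0.44. Neither TESK gene, whose kinases share cofilin as a substrate with LIMK1, passed 2-fold.

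The other formins and Ena/VASP genes had 14 entering genes and a median of 0.09. FMNL2, a formin of the cell front, read 1587 with CTNNB1 siRNA and 815 with control siRNA (log2 ratio 0.96), DAAM1, a formin that binds Dishevelled, had -0.75 (but 0.40 in another probe set), and DIAPH3 had 0.48.

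Contractility genes outside the myosin II group had 13 entering genes, 1 at least 2-fold lower and a median of 0.07. TAGLN, the filament binder transgelin, fell and read 150.3 with CTNNB1 siRNA and 552 with control siRNA, 3.67-fold lower (log2 ratio -1.88), and 41.5 in knockdown and 403 in control cells in a second probe set. Its remaining probe set read 85.4 in knockdown and 65.6 in control cells (0.38). MYL12A, a regulatory light chain like MYL9, read 547 with CTNNB1 siRNA and 996 with control siRNA (-0.86; -0.74 in a second probe set), and passed 2-fold under 4 of 11 alternatives. Adhesion plaque genes had 14, 1 of them at least 2-fold lower: SRC, the kinase that phosphorylates paxillin, was dim and read 39.7 in knockdown and 80.7 in control cells (-1.02). SRC lost the call under 4 of the 9 alternatives in which it entered. The focal adhesion kinase gene PTK2 had a log2 ratio of 0.67 and TES of 0.57.

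The other filament binders had 14 entering genes and a median of 0.28, with ADD3 at 0.42, PLS3 at 0.42 and LASP1 at 0.39. SRF, the factor that drives many actin genes with its MRTF partners, had a log2 ratio of -0.29. It read 269.7 in knockdown and 329.8 in control cells, with 0.25 in a dimmer entering probe set. MRTFA had 0.35, and MRTFB had 0.30 but -0.64 in a dimmer entering probe set. No representative probe set of the genes in these 2 lists passed 2-fold. Among the filament binders, a dimmer entering MARCKS probe set read 23.1 in knockdown and 112.4 in control cells (-2.28; -0.11 in the representative). A dimmer TMOD3 probe set read 829.5 in knockdown and 398.1 in control cells (1.06; 0.31 in the representative).

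**Figure D4:**
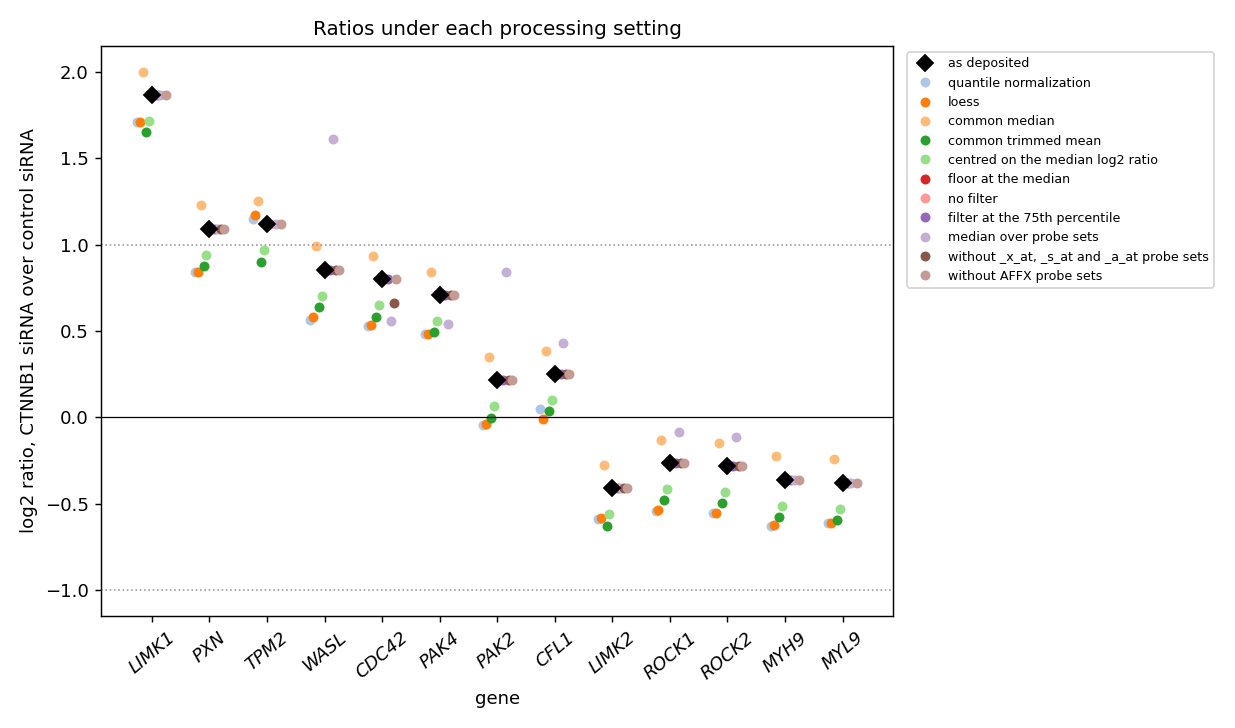
log2 ratio (CTNNB1 siRNA over control siRNA) of 13 member genes as deposited (black diamonds) and under each of 11 alternative settings (coloured points), with dotted lines at 2-fold. LIMK1, with 1 entering probe set, stays between 1.65 and 2.0 in the 10 alternatives in which it entered. PXN and TPM2 lie on both sides of the 2-fold line, and LIMK2, ROCK1, ROCK2, MYH9 and MYL9 stay between 0 and -0.63.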

How the data were processed

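The values deposited by the authors are linear signal intensities, 54675 on each of 2 arrays. MAS5 made them, per the submitters' processing notes. For its version, target, scaling and detection calls: not given in the sources used here. Since MAS5 signals of dim probe sets are noisy, low values were floored and filtered as stated above. The deposited medians were 46.7 with CTNNB1 siRNA and 51.3 with control siRNA, and the 2% trimmed means 271 with CTNNB1 siRNA and 233 with control siRNA, and no further scaling was applied. GEO's platform annotation of 2016 gave 41097 probe sets a single symbol and 1801 several, and 11777 were unlisted. Of the single-symbol probe sets, 41043 were matched to RefSeq, and the RefSeq symbol was used for them. The files name no genome build.

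Log2 ratios, counts at 2-fold and list medians were computed with Python 3.11.15, pandas 2.3.3 and statsmodels 0.14.6 (loess span 0.4), and tested on simulated arrays. With 1 array a group, precision is limited by their number. Members and lists were chosen with earlier results of these data known. All LIM kinase, cofilin, slingshot and PAK genes, members past 2-fold on any entering probe set, up to 4 members of each other role and up to 3 genes of each of 7 other lists are named, by size of ratio, and the remaining members are given too. The remaining list of the 8 is not reported here on its own. Alternatives were 5 scalings, 1 floor, 2 filters and 3 choices of probe sets.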

Additional observations from a re-analysis of the deposited data

How the results depend on the processing

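LIMK1 stayed past 2-fold in all 10 alternatives in which it entered, from 1.65 to 2.0. It had no entering probe set once _x_at, _s_at and _a_at probe sets were left out. Because LIMK1 has 1 entering probe set, the other choices of probe sets could not move its ratio and do not test it. The CTNNB1 ratio was -0.97 with the median over probe sets and past 2-fold in the other 10. Member genes at least 2-fold higher numbered 1 with a common trimmed mean, with centring on the median log2 ratio and without _x_at, _s_at and _a_at probe sets, and 2 to 4 otherwise. Members at least 2-fold lower numbered 0 in every alternative. The members' median was -0.015 after quantile normalization and after loess, -0.0003 with a common trimmed mean, 0.35 with a common median and 0.065 when centred. The median of all genes was -0.033 after quantile normalization, -0.021 after loess, -0.066 with a common trimmed mean, 0.29 with a common median, 0 when centred and 0.011 with no filter. All genes at least 2-fold lower numbered 183 with a common median, 543 with a common trimmed mean, 448 when centred, 160 with the floor at the median, 1271 with no filter and 34 with the filter at the 75th percentile. Genes at least 2-fold higher numbered 472, 128 and 163 in the first 3 of these, and 721 and 139 in the last 2. The share of calls that were lower was 50.9% as deposited, 27.9% with a common median, 80.9% with a common trimmed mean and 73.3% when centred.

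Of the other pathway genes, 1 was lower with a common median, with the floor at the median, with the 75th percentile filter and without _x_at, _s_at and _a_at probe sets, 4 with a common trimmed mean and when centred, and 1 was higher with a common median and with no filter. Their median was -0.045 after quantile normalization, -0.039 after loess, -0.054 with a common trimmed mean, 0.30 with a common median and 0.011 when centred. TAGLN turned to 0.38 without _x_at, _s_at and _a_at probe sets. Over 498 single values of members in the alternatives, 486 kept their side of 2-fold and moved by less than the probe set SD, 6 fell short of the rule, 1 passed it and 5 moved further. Why these values moved was not tested. Dim signals limit TPM2, VIL1 and SRC, although their entering probe sets were above the floor. A control signal of 18.8, near the floor of 13.8, limits the second WASL probe set and so the median over WASL probe sets. No paired analysis was possible because each group was 1 array.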

Other observations

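The 51 member probe sets under the signal filter are in no count of genes above. Of these, 24 were under the floor on both arrays and 6 were past 2-fold. A second MYH10 probe set read 62.2 with CTNNB1 siRNA and 17.5 with control siRNA, and a second RHOB probe set read 37.7 with CTNNB1 siRNA and 5.8 with control siRNA, at least 2.73-fold higher against the floor. A second MYL9 probe set read 7.5 with CTNNB1 siRNA and 75 with control siRNA, at least 5.43-fold lower, in the direction of the representative MYL9 probe set. A GSN probe set read 11.5 with CTNNB1 siRNA and 50.2 with control siRNA, at least 3.64-fold lower. A CDC42 probe set read 19.7 with CTNNB1 siRNA and 62.2 with control siRNA and an EZR probe set 14.2 with CTNNB1 siRNA and 36.9 with control siRNA, both opposite in direction to the brighter probe sets of these genes. In each of these 6 probe sets the lower of the 2 signals was at most 19.7, and there is no replicate.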
